A study of Prunus avium with 6 samples.

Results

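The evenly read genes are 20 of the 43673 predicted genes of sweet cherry, each with shares of the reads that differed by a factor under 2 across leaves and ripe fruits of ‘Bing’, ‘Lapins’ and ‘Rainier’. They were chosen by 2 limits on unique reads. A gene had to hold at least 20 unique reads in each of the 6 libraries, and its highest share of a library had to stay under 2 times its lowest share. Genes of the scaffolds whose names begin with Pav_sc0000877, Pav_sc000088 or Pav_sc000089, 638 genes in all, were left out. The read minimum was met by 137 genes outside those scaffolds, and 20 of them, 14.6%, were also under the ratio. The evenness of these 20 genes is therefore what chose them, and it is described here without a test.

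Genes whose transcripts take a steady part of the RNA in different organs are usually those of functions that every living cell runs, such as protein synthesis, protein turnover and the cytoskeleton. In plants such genes serve as internal references when the level of another gene is measured, and their evenness has to be checked in each new tissue and cultivar. A ripe cherry and a leaf differ widely in their main work, since the leaf fixes carbon and the fruit softens, stores sugars and forms pigments. No function is given here for the 20 genes, because no identifier matched the reference gene table and the 581 annotation rows used here cover only the scaffolds that the rule leaves out. They are named by identifier, and no sequence of them was used.

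Leaf and fruit material came from 3 cultivars of Prunus avium in the 2012 season. ‘Bing’ grew at Quillota, ‘Lapins’ at Los Andes and ‘Rainier’ at San Francisco de Mostazal, and fruits were taken at commercial maturity. No treatment was applied and there was 1 library for each cultivar and tissue, so that cultivar and site cannot be told apart and leaf and fruit are each represented by 3 libraries. Total RNA was read by pyrosequencing, and the reads were counted on predicted coding sequences. The labels do not say how many trees went into a library. Sums of unique reads ran from 70058 to 116264, the highest being that of ‘Bing’ fruit, and a count of 0 allows up to 3 reads, or 0.258 to 0.428 per 10000. All intervals given cover only the error of counting. Values of the 3 leaf or the 3 fruit libraries are given below in the order ‘Bing’, ‘Lapins’, ‘Rainier’. The tissue labels were checked on a gene for an antenna protein that binds chlorophyll (Pav_sc0000877.1_g910.1.mk), which had 57, 48 and 55 reads in leaves and 0, 0 and 1 in fruits.

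The even genes spanned a wide range of levels, mostly through the most read of them. The gene next in reads had 594 in all. Their reads summed over the 6 libraries ran from 148 to 2132, with a median of 255.5, and placed them between rank 9 and rank 517 of all genes. Reads of a gene in a single library had a median of 34.0 in ‘Rainier’ leaf, the lowest, and of 66.5 in ‘Bing’ fruit (the deepest library), the highest. The ratio of highest to lowest share had a median of 1.69 over the 20 genes and ran from 1.31 to 1.96. Among the other 117 genes with the read minimum the median ratio was 2.90 and the highest 18.2. In a bulk library a share of reads cannot tell apart the number of cells that hold a transcript and the amount in each cell.

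**Figure D1:**
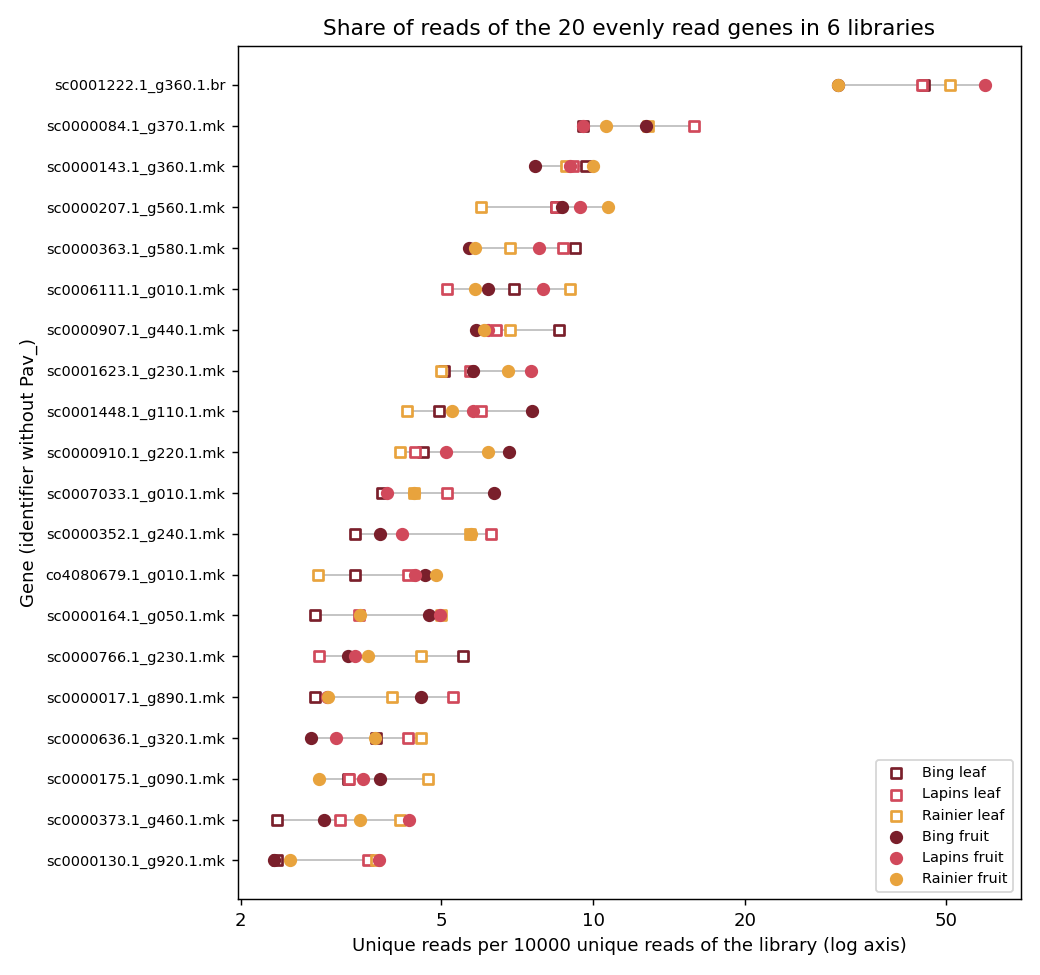
Unique reads per 10000 unique reads of the library (log axis) for the 20 evenly read genes, ordered by summed reads, with 1 point for each of the 6 libraries (open squares leaf, filled circles fruit). The most read gene lies between 30.5 and 59.8, and in every row leaf and fruit points lie within a factor of 2.

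Pav_sc0000143.1_g360.1.mk was the most evenly read gene. It had 86, 64 and 62 reads in leaves and 89, 67 and 84 in fruits. Its share was 9.21 ± 0.420 reads per 10000 in leaf, and in fruit it was 8.89 ± 1.18 (SD, n = 3 libraries each). The tissues overlapped, with the highest and the lowest share both in fruit, in ‘Rainier’ and ‘Bing’. The ratio of these was 1.31 (exact Clopper-Pearson 95% interval 0.958 to 1.78). This was the only one of the 20 genes whose interval ended below the limit of 2. The interval takes the highest and the lowest library as given, although they were picked for being extreme.

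Pav_sc0000907.1_g440.1.mk came next. Its reads were 76, 45 and 48 in leaves and 68, 46 and 51 in fruits, a ratio of 1.46 (1.04 to 2.06). The 3 fruits lay close together at 6.04 ± 0.172 reads per 10000, all below the 3 leaves, and the spread came mainly from ‘Bing’ leaf at 8.54.
Pav_sc0001623.1_g230.1.mk had 45, 40 and 35 reads in leaves and 67, 56 and 57 in fruits, a ratio of 1.51 (0.973 to 2.37). Here the order was the other way, with every fruit above every leaf. Pav_sc0000130.1_g920.1.mk had the fewest reads of the 20 genes, 21, 25 and 26 in leaves and 27, 28 and 21 in fruits. Its ratio of 1.62 had a wide interval, 0.921 to 2.86, which at so few reads held both an equal share and a difference beyond the limit.

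By the ratio of highest to lowest share, the most read of the even genes, Pav_sc0001222.1_g360.1.br, was also the least even of them. Its coefficient of variation over the 6 libraries, 26.3%, was just below that of Pav_sc0000017.1_g890.1.mk, 27.0%. Pav_sc0001222.1_g360.1.br had 403, 314 and 358 reads in leaves and 355, 445 and 257 in fruits. The leaves were alike, at 47.0 ± 3.44 reads per 10000, whereas ‘Lapins’ fruit at 59.8 stood above ‘Bing’ fruit at 30.5 and ‘Rainier’ fruit at 30.6. With this many reads the ratio of 1.96 was known closely (1.70 to 2.26), and it lay just under the limit. Pav_sc0000084.1_g370.1.mk, next in reads, had 85, 111 and 90 in leaves and 148, 71 and 89 in fruits. Its highest and lowest shares were both in ‘Lapins’, 15.8 per 10000 in leaf and 9.55 in fruit, a ratio of 1.66 (1.22 to 2.27).

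Pav_sc0000207.1_g560.1.mk had 75, 59 and 42 reads in leaves and 101, 70 and 90 in fruits, with ‘Rainier’ holding both the lowest share, in leaf, and the highest, in fruit. Pav_sc0000363.1_g580.1.mk had 82, 61 and 48 reads in leaves and 66, 58 and 49 in fruits. ‘Bing’ held both ends here, 9.21 per 10000 in leaf and 5.68 in fruit. Pav_sc0006111.1_g010.1.mk had 62, 36 and 63 reads in leaves and 72, 59 and 49 in fruits, and its extremes both lay among the leaves, ‘Rainier’ above ‘Lapins’. The other 14 genes had between 148 and 334 reads in all.

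Genes near the limits show how much hangs on a few reads. Just inside the ratio lay Pav_sc0000352.1_g240.1.mk (1.86), Pav_sc0000017.1_g890.1.mk (1.88), Pav_sc0000766.1_g230.1.mk (1.93) and Pav_sc0001222.1_g360.1.br. Their reads in leaves were 30, 44 and 40 for the first, 25, 37 and 28 for the second and 49, 20 and 32 for the third. In fruits they were 44, 31 and 48, then 53, 22 and 25, then 38, 25 and 30. In these 3 genes both extremes lay among the leaves, in ‘Bing’ and ‘Lapins’. Just outside lay Pav_sc0001309.1_g650.1.mk (2.03), Pav_sc0000622.1_g810.1.mk (2.04), Pav_sc0000549.1_g800.1.mk (2.04) and Pav_sc0001527.1_g010.1.mk (2.08). The first of these had 42, 44 and 36 reads in leaves and 36, 23 and 33 in fruits, and its interval, 1.20 to 3.52, covers both sides of the limit.
The interval reached the limit in 19 of the 20 even genes and ran below it in 57 of the 117 others. In 6 of the 20 the interval held a ratio of 1, among them Pav_sc0000143.1_g360.1.mk, whose interval did not reach the limit. At the read minimum itself, Pav_co4080679.1_g010.1.mk with 20 reads in ‘Rainier’ leaf and Pav_sc0000766.1_g230.1.mk with 20 in ‘Lapins’ leaf were the lowest admitted. A further 22 genes were under the ratio with 15 to 19 reads in their lowest library.

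**Figure D2:**
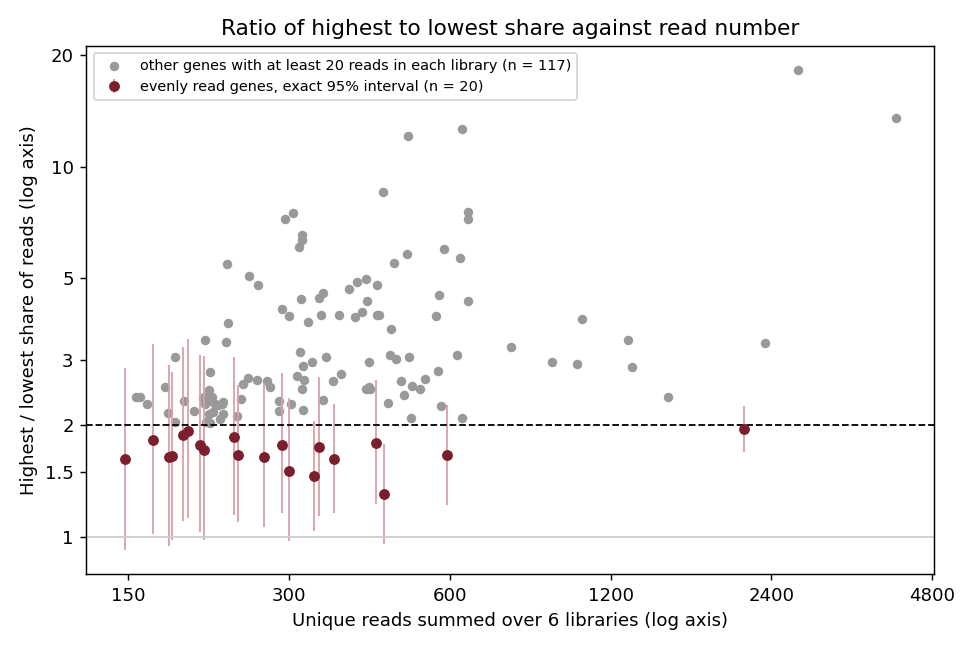
Ratio of the highest to the lowest share of reads over the 6 libraries against summed unique reads (both log axes) for 20 evenly read genes with their exact 95% intervals and 117 other genes with at least 20 reads in each library (grey), with the limit of 2 dashed. Intervals of the even genes narrow with reads, from 0.921 to 2.86 at 148 reads to 1.70 to 2.26 at 2132 reads.

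Spread beyond counting error was measured as the chi-square of a gene's reads against the library sums, divided by its degrees of freedom, which averages 1 when libraries differ by counting error alone. Over the 6 libraries this index had a median of 1.94 in the even genes and 9.65 in the other 117. It rests on the reads that the rule used, so a lower index in the even genes follows from their choice. For genes chosen by a low ratio the value of 1 is no exact reference. It was under 1 in Pav_sc0000143.1_g360.1.mk (0.751) and Pav_sc0000175.1_g090.1.mk (0.857), and under 2 in 11 of the 20. Only Pav_sc0000084.1_g370.1.mk (3.85) and Pav_sc0001222.1_g360.1.br (26.9) were above 3. The same ratio thus took in genes with an index near 1 and, in the most read gene, an index far above it.
Split by tissue, the index among the 3 leaves had a median of 1.42 in the even genes and that among the 3 fruits a median of 1.40. Between pooled leaf and pooled fruit the median was 2.53. The part between tissues was the largest in 9 genes, the part among leaves in 7 and the part among fruits in 4. In Pav_sc0001222.1_g360.1.br the index was 60.3 among fruits, 1.83 among leaves and 20.8 between the tissues. Among the leaves it was highest in Pav_sc0000084.1_g370.1.mk, at 6.27, where ‘Lapins’ stood above ‘Bing’.

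**Figure D3:**
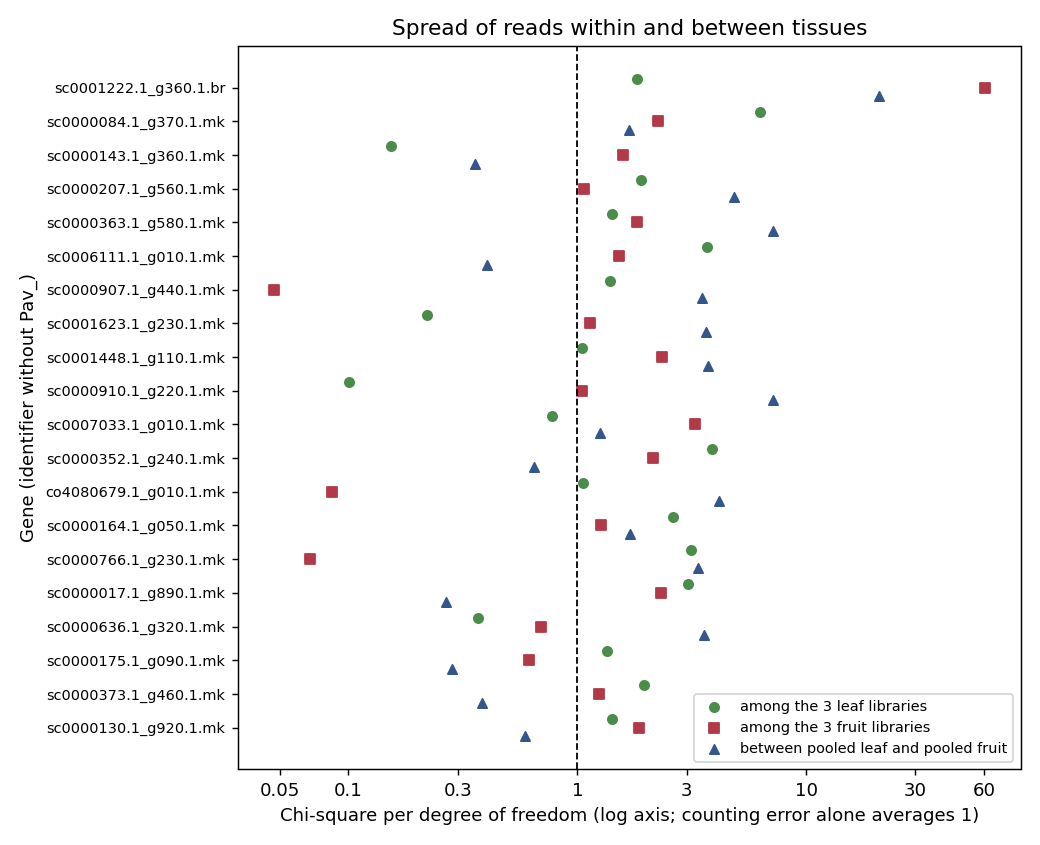
Chi-square per degree of freedom (log axis) for each of the 20 evenly read genes. It is given among the 3 leaf libraries, among the 3 fruit libraries and between pooled leaf and pooled fruit. The dashed line at 1 is the average for counting error alone in genes not chosen by their ratio. The highest point is that of the most read gene among fruits, at 60.3, and the lowest that of Pav_sc0000907.1_g440.1.mk among fruits, at 0.0471.

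Between fruit and leaf the even genes leaned both ways. The mean share was higher in fruit in 8 of the 20 and lower in 12, with a median fruit to leaf ratio of 0.924 and a range from 0.760 to 1.38. The highest ratio was that of Pav_sc0000910.1_g220.1.mk, with 41, 31 and 29 reads in leaves and 79, 38 and 52 in fruits. Its share was 4.39 ± 0.240 reads per 10000 in leaf, and in fruit it was 6.03 ± 0.854 (SD, n = 3), and every fruit lay above every leaf. Pav_co4080679.1_g010.1.mk followed at 1.33, with 30, 30 and 20 reads in leaves and 54, 33 and 41 in fruits, the fruits again all above the leaves. At the other end, Pav_sc0000636.1_g320.1.mk had 33, 30 and 32 reads in leaves and 32, 23 and 31 in fruits. Its share was 4.18 ± 0.434 in leaf and 3.18 ± 0.476 in fruit, a ratio of 0.760, and every fruit lay below every leaf. Next to it, Pav_sc0000363.1_g580.1.mk had a ratio of 0.780, and its tissues overlapped.

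In all, 4 of the 20 genes had every fruit above every leaf and 2 had every fruit below, against 27.5% and 29.1% of the 1864 genes that passed edgeR's filter on low counts. The rule holds fruit and leaf within a factor of 2, so these counts say nothing of the genes beyond their choice. The order also depended on the scaling. With TMM, which sets the libraries to equal level over most genes rather than to equal sums, the fruit to leaf values of the 20 genes moved by -0.17 to -0.16 on the log2 scale, none of the 20 genes had all fruits above all leaves and 3 had all below. The ratio was above 1 in 6 genes instead of 8. DESeq2 size factors moved these values by -0.16 to -0.12, and 1 gene then had all fruits above and 1 all below. No share over all genes is given beside the counts under TMM and DESeq2, so nothing is read from them about the 20 genes. Pav_sc0000910.1_g220.1.mk kept a mean share higher in fruit with TMM (1.23), though its tissues then overlapped, and Pav_sc0000636.1_g320.1.mk kept one lower in fruit (0.680).
The quasi-likelihood test of edgeR at an adjusted p under 0.05 called none of the 20 genes, in either direction. Over all 1864 genes tested it called 19.4% higher and 26.3% lower. None of the 20 was under 0.05 without adjustment either, in edgeR or in DESeq2. Since the rule used this same contrast, that count is given as a description. Of the other 117 genes with the read minimum, 13 were called higher and 14 lower.

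The places of the highest and the lowest shares rest on values that the rule used and on library sums. They were not tested, nor set beside those of the other genes with the read minimum. The highest share of a gene lay in a leaf library for 10 genes and in a fruit library for 10. Each library held it for 3 or 4 genes. The lowest share lay in ‘Bing’ fruit for 6 genes and in ‘Bing’ leaf and ‘Rainier’ leaf for 5 each, against 2 in ‘Lapins’ leaf and 1 each in fruits of ‘Lapins’ and ‘Rainier’. Highest and lowest share fell within the same tissue in 8 genes and within the same cultivar in 7. Within a cultivar, ‘Bing’ had a higher share in fruit than in leaf for 12 of the 20 genes, ‘Lapins’ for 11 and ‘Rainier’ for 7. By the rule no pair of libraries differed by a factor of 2 in share of the library sum in any of them. On such shares none could meet the 2-fold criterion that the study set for pairs of cultivars. The paper does not state the scaling of its fold change. With DESeq2 size factors the highest level of Pav_sc0001222.1_g360.1.br was 2.13 times its lowest.

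The remaining genes showed the same mixture. Pav_sc0001448.1_g110.1.mk had 44, 42 and 30 reads in leaves and 88, 43 and 44 in fruits, highest in ‘Bing’ fruit. Pav_sc0007033.1_g010.1.mk, with 34, 36 and 31 in leaves and 74, 29 and 37 in fruits, was also highest there and lowest in ‘Bing’ leaf. Pav_sc0000164.1_g050.1.mk had 25, 24 and 35 in leaves and 55, 37 and 29 in fruits. In it the highest share, in ‘Rainier’ leaf, and the lowest, in ‘Bing’ leaf, were both in leaves. Pav_sc0000175.1_g090.1.mk had 29, 23 and 33 in leaves and 44, 26 and 24 in fruits, and Pav_sc0000373.1_g460.1.mk had 21, 22 and 29 in leaves and 34, 32 and 29 in fruits. All of these overlapped between leaf and fruit.

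To describe how far the set turns on a single library, the rule was also applied to 5 libraries at a time and the library left out was read. A gene counted as held when its share there was within 2-fold of its mean share in the other 5. The 20 even genes met the rule on any 5 libraries and were held in every case by construction, so the totals that include them are no measure of evenness in a new library. Leaving them out takes away genes that were held, so neither total is read as support.
With ‘Bing’ leaf left out 38 genes met the rule and 34 were held, of which 14 of 18 were genes other than the 20. Among all 147 genes with the read minimum in the other 5 libraries 78.2% were held. This percentage and those like it below include the 20 genes, so they are not matched to the counts of other genes. With ‘Lapins’ leaf left out all 35 were held, 15 of them other genes, beside 78.5% of all genes with the minimum. For ‘Rainier’ leaf it was 28 of 33, with 8 of 13 other genes, beside 76.7%. The counts of other genes are small, and no difference between the leaves is read from them.
With ‘Lapins’ fruit left out 32 of 34 were held, 12 of 14 among the other genes, beside 84.8%. For ‘Rainier’ fruit it was 26 of 29, with 6 of 9 other genes, beside 83.8%. ‘Bing’ fruit had the most genes that met the rule without it, 46, and 31 of these were held, 11 of 26 among the other genes, beside 65.3%. Of the 15 genes not held there, 12 were too low and 3 too high. ‘Bing’ fruit is also the deepest library, and the part of depth or site in this was not tested.
Over the 6 libraries 186 of 215 choices were held, 86.5%, and 66 of 95, 69.5%, without the 20 genes. By the read minimum alone 77.9% of 915 choices were held. Those 915 still include the 20 genes, so the 69.5% and the 77.9% do not rest on like sets. The choices overlap, since they came from 100 different genes. Among the genes that failed, Pav_sc0000129.1_g330.1.mk, named after its value was seen, had 161 reads in ‘Bing’ leaf, 5.04 times its mean share in the other libraries.

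**Figure D4:**
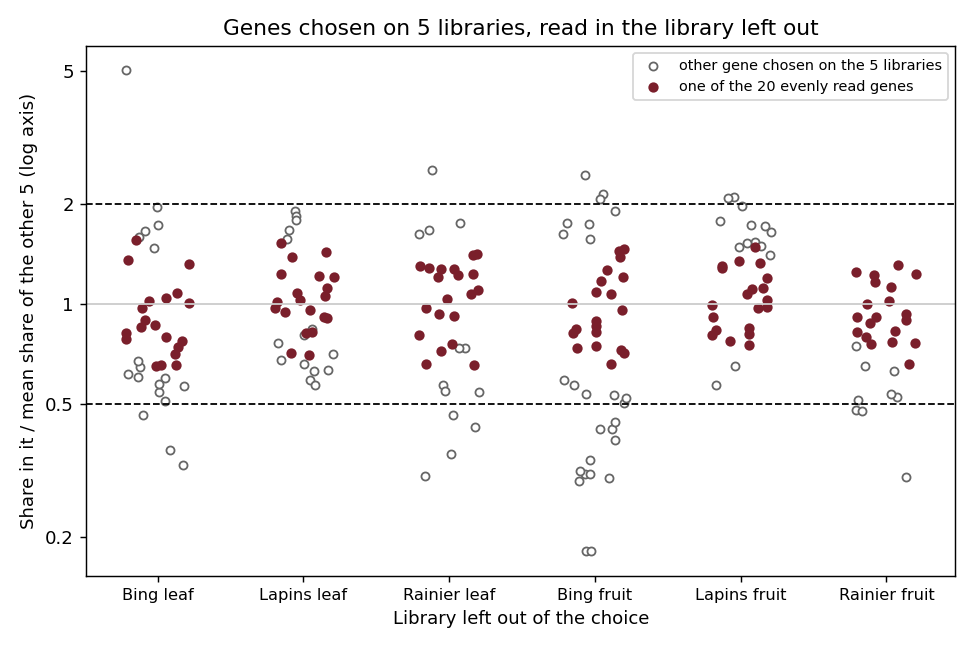
Share of reads in the library left out, divided by the mean share of the other 5 (log axis), for genes that met the rule on those 5 libraries, with filled points for the 20 evenly read genes and dashed lines at 0.5 and 2. In ‘Bing’ fruit 15 of 46 points lie outside the lines, and in ‘Lapins’ leaf none of 35 does.

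Reads per kilobase of coding sequence, which set the levels of genes of different length on a common scale, differed 64.9-fold over the 20 genes. Most of this range came from the highest gene, which is also the shortest. Summed over the 6 libraries they ran from 76.5 to 4970 reads per kilobase, with a median of 259 against 329 in the other 117 genes. The short gene Pav_sc0001222.1_g360.1.br, of 429 coding bases, was highest, followed by Pav_sc0000084.1_g370.1.mk at 687.5 and Pav_sc0001623.1_g230.1.mk at 446. The lowest were Pav_sc0000164.1_g050.1.mk at 76.5, Pav_sc0000143.1_g360.1.mk at 87.1 and Pav_sc0000907.1_g440.1.mk at 102, genes of 2679, 5187 and 3288 coding bases that reached the read minimum at a low level per base. The 2 most evenly read genes were thus among the longest and the least abundant per kilobase. The next 2 in evenness were not. Pav_sc0001623.1_g230.1.mk has 672 coding bases, and Pav_sc0000130.1_g920.1.mk has 564 and held 262 reads per kilobase. Coding length had a median of 997.5 bases in the 20 genes, 1092 in the other 117 and 1080 in the 16519 genes with a unique read, and 10 of the 20 were shorter than 1000 bases.

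The even genes lay on 20 different scaffolds or contigs, so that none was a neighbour of another on the same one. The identifiers of 19 of them end in mk and 1, that of the most read gene, in br. Of the other 117 genes 95.7% end in mk, of the genes with a read 86.5%, and of all predicted genes 54.3%. What the endings stand for is not given in the sources used here. Non-specific reads, which also match another coding sequence and were not counted as unique, were absent in 17 of the 20. Pav_co4080679.1_g010.1.mk had 23 of them, 9.96% of its total reads, Pav_sc0000084.1_g370.1.mk had 12 (1.98%) and Pav_sc0001222.1_g360.1.br 4 (0.187%). Over whole libraries they made up between 1.49% and 2.28% of total reads.

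Together the 20 genes held 7465 reads. They took 1.46%, 1.56% and 1.58% of the unique reads in leaves and 1.37%, 1.67% and 1.35% in fruits. The highest sum was 1.23 times the lowest (1.13 to 1.33). Pav_sc0001222.1_g360.1.br alone gave 28.6% of these reads. Without it the sums lay between 1.00% and 1.11% of each library, 1.06% ± 0.0557 in leaf and 1.06% ± 0.00982 in fruit (SD, n = 3), and the highest was 1.11 times the lowest. On shares of the library sums, the fruits, which differed most in the full sum, were closest to each other in the sum of the other 19 genes. Nothing is read from this closeness, since it was not compared with counting error and depends on the scaling. Relative to the library sums, DESeq2 size factors were 1.16, 1.07 and 1.01 in the fruits. The like means of leaf and fruit also hold for library sums only. TMM moved the fruit to leaf values of the 20 genes by -0.17 to -0.16 on the log2 scale.

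Among genes with a description, only a puromycin-sensitive aminopeptidase (Pav_sc0000886.1_g260.1.mk), an enzyme that removes amino acids from the start of peptides, met both limits. It lies on a scaffold that the rule leaves out and so is not one of the 20. It had 49, 40 and 26 reads in leaves and 62, 32 and 32 in fruits, a ratio of 1.54 (0.918 to 2.63). Its share was 4.97 ± 1.10 reads per 10000 in leaf, and in fruit it was 4.48 ± 0.776 (SD, n = 3), and the tissues overlapped. Of all 428 described genes 91 had a read in every library and this 1 reached 20 reads in each, so that no more can be read from smaller groups of them. Of 11 described genes of translation and protein folding 3 had a read in every library, of 14 of the ubiquitin pathway 4, of 12 of membrane trafficking 7, and of 14 of RNA processing and chromatin 3, and none of these reached 20 reads in each library. Of 31 chloroplast and photosynthesis genes 10 had a read in every library and none reached 20 in each. The described genes are a small part of the genome, and 266 of them had a read at all.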

How the data were processed

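The authors mapped trimmed pyrosequencing reads in CLC Genome Workbench to the predicted coding sequences of the cherry genome, and deposited 2 raw counts for each gene, that of its unique and that of its total reads. The deposited RPKM served only to recover coding lengths, which were whole to within 0.01 in all 16916 genes with total reads and equal to the annotated length in all 305 genes that could be compared. The deposited TPM were not used.

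Unique reads were divided by their library sum and given per 10000. A ratio carries an exact conditional (Clopper-Pearson) 95% interval. Fruit and leaf were compared over all genes with edgeR 4.0.16 under R 4.3.3, by its quasi-likelihood test after TMM scaling and filterByExpr, with Benjamini-Hochberg adjustment. The 3 cultivars served as replicates. The p-values thus set the difference between the tissues against the spread between these libraries, which includes cultivar and site. Steps were tested on simulated data. The genes and lists were chosen with earlier results of these data known. Named genes were those with the most reads (6), the lowest ratios (4), ratios nearest the limit (4 on each side), the highest and lowest reads per kilobase (3 each) and fruit to leaf ratios (2 each), the most non-specific reads (2), and described genes under both limits. Alternatives covered read minimums, ratio limits, total reads, TMM, upper-quartile and DESeq2 1.42.0 scaling, thinning, the cultivar as a block, no filter on low counts, and leaving out each library.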

Additional observations from a re-analysis of the deposited data

How the results depend on the processing

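The number of evenly read genes depended on both limits. It was 85 with 10 reads in each library, 10 with 30 and 3 with 50, and 2 with a ratio under 1.5 and 83 under 3. Without 1 library it was 29 to 46, the highest without ‘Bing’ fruit. With total reads, TMM, upper-quartile or DESeq2 scaling it was 21, 25, 21 and 24, with 20, 19, 20 and 18 of the 20 genes among them. Thinning each library to 70058 reads gave 17 genes, 12 of them shared. The share of choices held in a library left out, which includes genes held by construction, was 79.5% with 50 reads. The ratio of highest to lowest summed share was 1.43 with DESeq2 size factors and 1.17 to 1.23 without 1 library. Described genes under both limits numbered 3 with 10 reads and 0 with 30 reads, 50 reads or a ratio under 1.5. For fruit against leaf, 708 genes were higher and 1249 lower with no filter on low counts, and 767 lower with DESeq2, while leaving out 1 library gave 309 to 465 higher and 521 to 658 lower. None of the 20 genes was called in any of these fits.

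With the cultivar as a replicate block 357 genes were higher and 493 lower. Both tissues of a cultivar share a site, and the correlation of leaf and fruit deviations was 0.145 for ‘Bing’, -0.0410 for ‘Lapins’ and 0.0877 for ‘Rainier’. Depth limits these values, since 10 of the 20 genes had fewer than 30 reads in a library.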

Other observations

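With the read minimum lowered to 10, described genes other than the aminopeptidase came under the ratio of 2. A short-chain dehydrogenase TIC chloroplastic-like gene (Pav_sc0000886.1_g120.1.mk), named for the machinery that imports proteins into the chloroplast, had 26, 15 and 21 reads in leaves (‘Bing’, ‘Lapins’, ‘Rainier’ in this order) and 35, 13 and 16 in fruits. Its share was 2.68 ± 0.472 reads per 10000 in leaf, and in fruit it was 2.22 ± 0.688 (SD, n = 3), and the tissues overlapped. The gene described as TIFY 6B-like (Pav_sc0000893.1_g130.1.mk), of a family that includes repressors of jasmonate responses, had 28, 22 and 22 reads in leaves and 20, 15 and 15 in fruits. The leaves lay very close together, at 3.14 ± 0.00584, and the fruits at 1.84 ± 0.156, all of them below the leaves. Among the leaves the chi-square per degree of freedom was 8.5e-05, where counting error alone averages 1, so nothing is read from their closeness. The ratio of the TIFY 6B-like gene, 1.83 (exact 95% interval 0.994 to 3.42), had its extremes in ‘Bing’ leaf and ‘Bing’ fruit. That of the dehydrogenase gene, 1.72 (0.889 to 3.55), had both extremes in fruit. Both intervals held a ratio of 1. These genes were described after their values were seen, and neither was tested.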
